A study of Solanum tuberosum with 9 samples.

Results

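In stolons of the potato variety Kexin 13, 129 of 25702 counted genes had transcript levels that went up at each of 2 increases in nitrogen supply. Stolons are underground shoots whose tips can swell into tubers. The plants were grown under nitrogen deficiency (AN0), a conventional supply (AN1) or an excess (AN2), with 3 RNA-seq libraries in each treatment and no other treatment named in the labels. The sources used here give no amounts of nitrogen, and they do not say if each library stands for its own plant, so the spread between libraries may be technical in part.

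The 129 genes were chosen from the measured counts themselves. Counts were divided by the library total and multiplied by 1000000 to give CPM, so that every library has the same total. A gene was taken when its mean over the 9 libraries was at least 2 CPM, when every AN1 library lay above every AN0 library, when every AN2 library lay above every AN1 library, and when the mean of log2(CPM + 0.5) went up by at least 0.5 at both steps. Of 17034 genes with at least 2 CPM, 267 had no overlap between neighbouring treatments in this order, which is a background of 1.57%. With the steps taken singly, every AN1 library lay above every AN0 library in 1622 genes (9.52%), and every AN2 library above every AN1 library in 2870 genes (16.8%). The full rule was met by 130 genes, and 1 of 4 genes left out by name was among them, which leaves 129, or 0.757% of the 17034. Because the order AN0, AN1, AN2 chose the genes, their values across treatments are a description and carry no test.

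Nitrogen is taken up by the roots mainly as nitrate and ammonium, and nitrate is reduced by nitrate reductase and nitrite reductase before it enters amino acids. Nitrate is also a signal that changes the transcription of many genes in plants. In potato, a high nitrogen supply is known to favour shoot and stolon growth and to delay tuber formation, and gibberellin and abscisic acid act in opposite directions on stolon tips. In the files and in RefSeq's list of genes for SolTub_3.0, a potato genome assembly, all 129 genes carry a locus number only. RefSeq gives 121 of them as protein coding and 8 as long non-coding RNA (lncRNA), and the list holds no product names, so no role is given to any of them here.

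The library totals ran from 30952622 to 38235348 counts. The tissue label was checked against transcripts of swelling tubers. Patatin (LOC102605260), the main tuber storage protein, stood between 10574 and 18044 CPM in 7 libraries, at 3567 CPM in AN0-1 and at 485 CPM in AN2-3. GBSS, the granule-bound starch synthase, and SS16, a sucrose synthase, were detected in all 9 libraries. PSBR, a photosystem II subunit and a marker of green tissue, reached 283 CPM in AN0-1 and 362 CPM in AN2-3, while the other 7 libraries held 9.02 to 74.3 CPM. By patatin and PSBR, AN0-1 and AN2-3 therefore stand apart from the rest, while by GBSS and SS16 only AN2-3 does. Results that lean on AN0-1 and AN2-3 are given with and without them. In bulk libraries such as these, fewer cells of a type and less RNA per cell cannot be told apart.

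Together the 129 genes held 0.213%, 0.196% and 0.225% of the counts in AN0-1 to AN0-3. Their share was 0.416%, 0.346% and 0.395% in AN1-1 to AN1-3. In AN2-1 to AN2-3 it was 0.866%, 0.846% and 1.18%. The 5 most abundant members made up between 51.8% and 62.5% of this share, depending on the library. The same rule turned round, for genes that go down at each step, was met by 39 genes, 0.229% of the 17034.

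**Figure D1:**
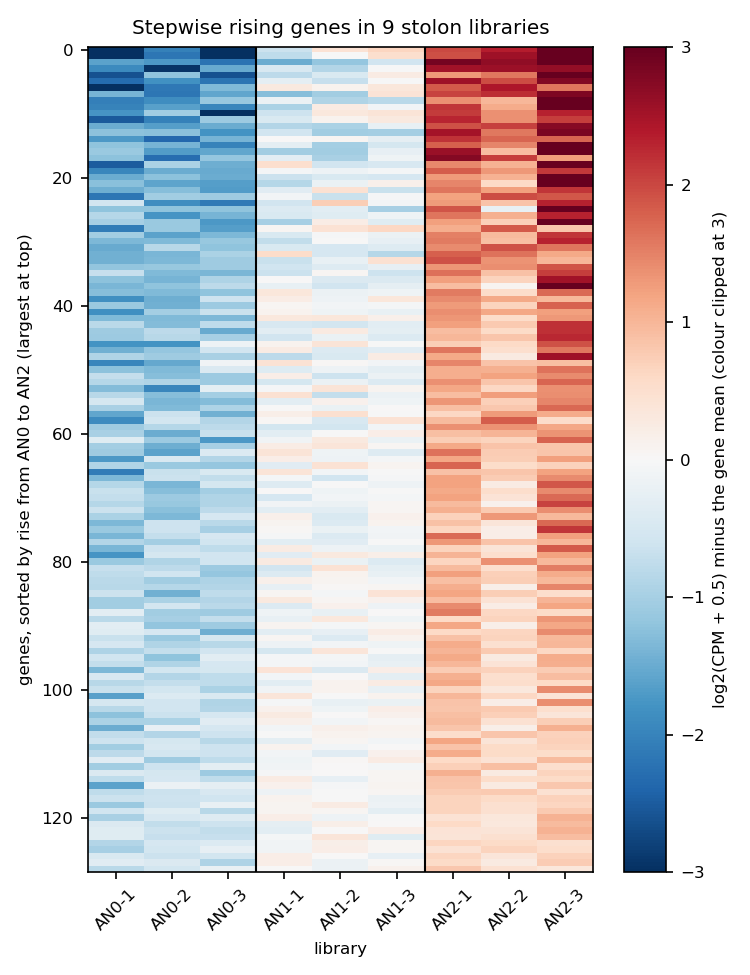
Values of the 129 genes (rows, sorted by the difference between AN2 and AN0) in the 9 libraries (columns), as log2(CPM + 0.5) minus the gene's mean, with the colour clipped at 3. The AN0 columns are low, the AN1 columns lie near the gene means and the AN2 columns are high, as the rule demands; AN2-3 holds many of the darkest cells in the upper rows.

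On CPM the second step was the larger one in most members, which is a description, as the rule used both contrasts. The median difference in mean log2(CPM + 0.5) over the 129 genes was 0.85 for AN1 minus AN0, with a range of 0.51 to 3.398. For AN2 minus AN1 the median was 1.10, with a range of 0.50 to 3.998. Over all 17034 genes the medians of the same differences were 0.02 and 0.16. The second step exceeded the first in 91 members and was the smaller in 38. These counts depended on scaling and on 1 library: the second step was the larger in 70 members when CPM was scaled by TMM (trimmed mean of M-values, a correction for composition) and in 71 without AN2-3. TMM scaling moved the median of all genes for AN2 minus AN1 by -0.19 on the log2 scale. With that scaling the medians over the 129 genes were 0.85 and 0.92, so the 2 steps were close.

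Both steps reached 1 on the log2 scale, a doubling, in 30 members, and neither reached it in 43. In 23 members the second step was at least 2 times the first on the log2 scale. LOC102591434 had the largest second step, with 0.48, 0.40 and 0.14 CPM in AN0-1 to AN0-3, 0.56, 0.84 and 1.49 CPM in AN1-1 to AN1-3, and 21.3, 18.4 and 27.4 CPM in AN2-1 to AN2-3. Its AN0 and AN1 libraries were all below 2 CPM. Most of the difference, 3.998 of 4.78 in mean log2(CPM + 0.5), lay between AN1 and AN2. At such low levels the added 0.5 makes the first step smaller. The mean CPM was 2.86-fold higher in AN1 than in AN0 and 23.2-fold higher in AN2 than in AN1. In 2 members, LOC102579540 and LOC102595294, the first step was at least 2 times the second on the log2 scale. That count holds for CPM only. In the edgeR fit described below, which uses TMM, LOC102601437 among others would join them, with steps of 1.43 and 0.56. LOC102595294 stood at 2.50, 2.49 and 2.46 CPM in the AN0 libraries, at 8.90, 9.02 and 7.92 CPM in the AN1 libraries and at 18.4, 10.6 and 18.0 CPM in the AN2 libraries. Its AN0 and AN1 values were tight, and AN2-2 lay only a little above the AN1 libraries.

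**Figure D2:**
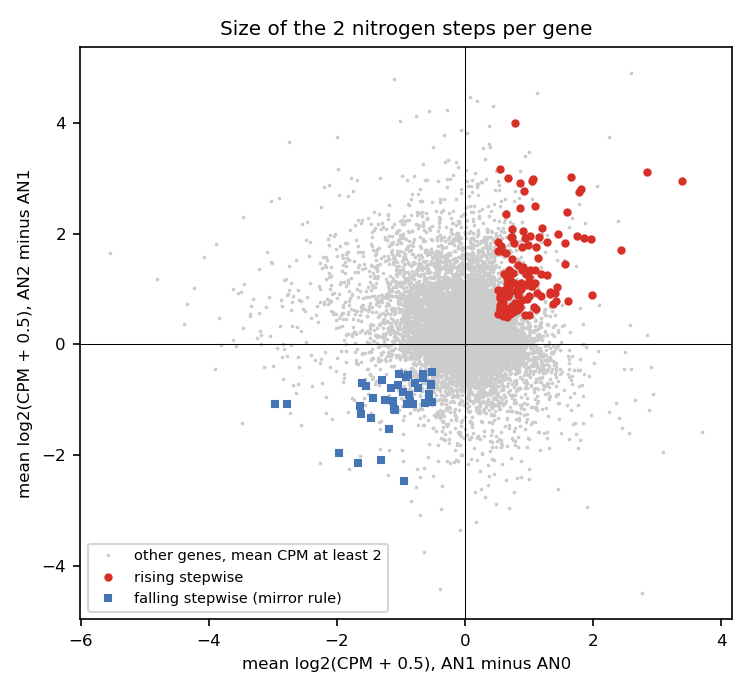
Difference in mean log2(CPM + 0.5) between AN1 and AN0 (horizontal) and between AN2 and AN1 (vertical) for each gene with a mean of at least 2 CPM. The 129 stepwise rising genes (red circles) fill the upper right beyond 0.5 on both axes and reach 3.398 and 3.998, and the 39 stepwise falling genes (blue squares) lie at the lower left.

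The limits of the rule cut through a continuous range. The members just inside had smaller steps of 0.501 (LOC102596580), 0.511 (LOC107058417) and 0.512 (LOC102601751). Just outside, LOC107061345, LOC102595265 and LOC102590876 met every other part of the rule with smaller steps of 0.499, 0.499 and 0.498. The gap between treatments was often narrow too. The lowest AN1 library exceeded the highest AN0 library by a median factor of 1.25, and the lowest AN2 library exceeded the highest AN1 library by a median factor of 1.39.

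As a further description, the genes were looked up in a quasi-likelihood test of edgeR across 21223 genes with a Benjamini-Hochberg adjusted p under 0.05 as the call. All 129 were tested. AN2 was called higher than AN0 in 106 members (82.2%), against a background of 2.35% of all genes tested. For AN2 against AN1 the count was 14 members (10.9%) with a background of 0.646%, and for AN1 against AN0 it was 1 member (0.775%) with a background of 0.00942%. No member was called at both steps. Nothing is read from these shares, since the rule used the same contrasts. The member called for AN1 against AN0 was LOC102595294, and the 14 called for AN2 against AN1 include LOC102591434, LOC102592148, LOC102588485 and LOC102598218. DESeq2 called 127 members higher in AN2 than in AN0 (background 7.21%), 63 higher in AN2 than in AN1 (background 4.49%) and 36 higher in AN1 than in AN0 (background 0.999%). Without AN0-1 and AN2-3 the edgeR counts, in the same order, were 62, 4 and 0. Leaving out 1 library at a time, any of the 9, gave 39 to 99 members for AN2 against AN0, with the lowest count without AN0-2. The count for AN2 against AN1 was 0 without any 1 of the AN1 libraries, AN2-1 or AN2-3.

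The level of a gene per unit of its length is given by FPKM, fragments scaled for gene length and library total, in the authors' table. By mean FPKM over the 9 libraries LOC102577567 led the set with 1840 FPKM, followed by LOC102583272 with 1136 and LOC102605015 with 758 FPKM. The median member had 8.57 FPKM, against 10.7 FPKM over all 17034 genes. Members were also short by that table, with a median length of 1383 bases against 1713 bases over all 17034 genes. The range of lengths was 336 to 3988 bases.

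LOC102577567 stood at 534, 361 and 413 CPM in AN0-1 to AN0-3, at 1009, 575 and 774 CPM in AN1-1 to AN1-3, and at 1868, 2028 and 2356 CPM in AN2-1 to AN2-3. The AN2 libraries formed a separate high group, while AN1-2 lay only a little above AN0-1. LOC102583272 was steadier within treatments, at 470, 507 and 570 CPM in AN0, 720, 784 and 828 CPM in AN1, and 1344, 1364 and 1092 CPM in AN2. Its steps were small and even, 0.59 and 0.70 on the log2 scale. LOC102599348 had 129, 100.3 and 134 CPM in AN0, 250, 220 and 254 CPM in AN1, and 475, 446 and 834 CPM in AN2. Here the AN0 and AN1 libraries were close together, and AN2-3 stood above both other AN2 libraries.

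LOC102599705 had 17.0, 37.7 and 37.1 CPM in AN0, 73.0, 48.9 and 75.6 CPM in AN1, and 179, 304 and 286 CPM in AN2. AN0-1 was its lowest library. In LOC102594513 the first step was the larger, with 5.20, 10.5 and 19.2 CPM in AN0, 59.6, 52.2 and 61.2 CPM in AN1, and 174, 264 and 148 CPM in AN2. The AN0 libraries of that gene spread widely, whereas the AN1 libraries lay close together. In LOC102588863 the first step was again the larger, with steps of 1.44 and 1.04 on the log2 scale. Both steps of LOC102589511 were near 1, at 0.95 and 1.07, and those of LOC102584718 were near the limit of the rule, at 0.52 and 0.55.

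**Figure D3:**
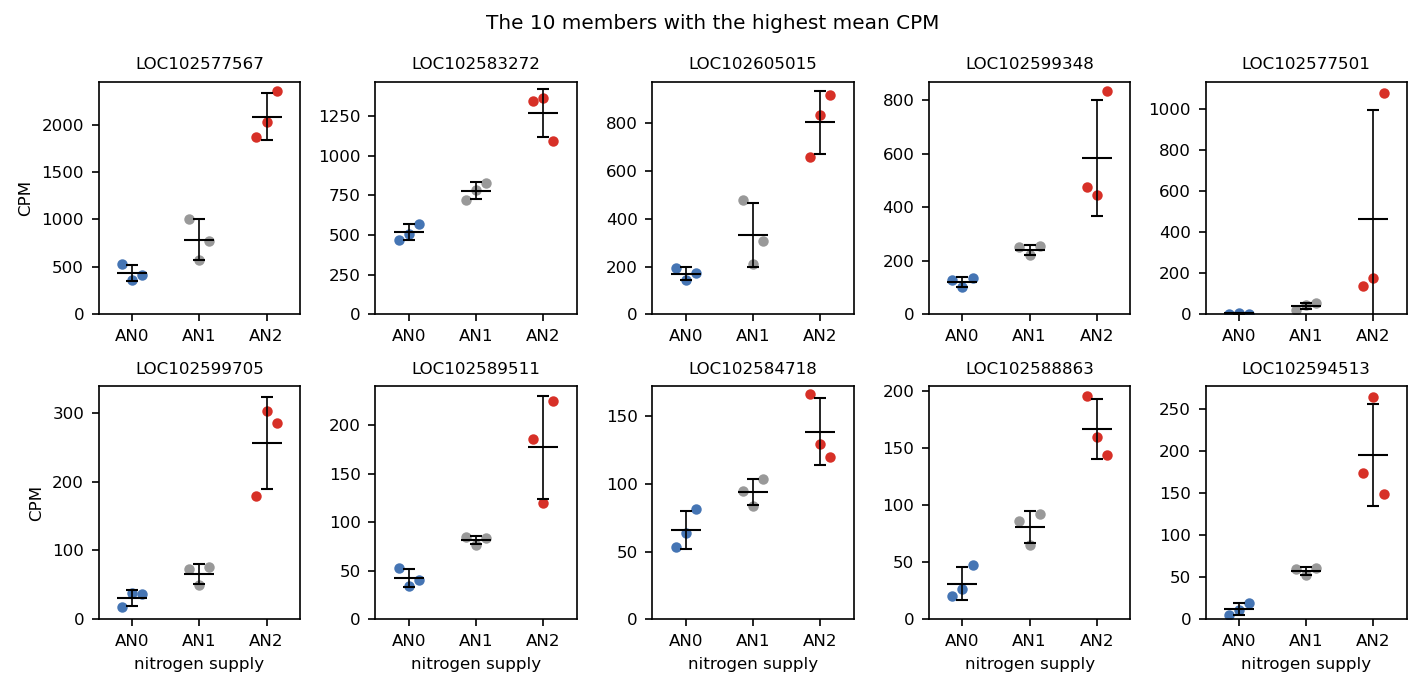
CPM in each library (points) of the 10 members with the highest mean CPM, by nitrogen supply, with the mean (long bar) and SD of 3 libraries (whiskers); every vertical axis starts at 0. The AN2 points lie above all AN1 points in each panel, from 1868 to 2356 CPM for LOC102577567, and LOC102577501 has 1 far point, 1075 CPM in AN2-3.

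On the scale of the rule, mean log2 CPM with an added constant, the largest difference between AN2 and AN0 belonged to LOC102577501, with 6.35. The constant makes this difference smaller for genes with few or no counts in AN0. In the edgeR fit for AN2 against AN0, LOC102583592 (10.5) and LOC102581787 (7.25) ranked above LOC102577501 (6.56). LOC102577501 had 2.50, 7.98 and 1.37 CPM in AN0, 21.6, 46.2 and 53.3 CPM in AN1, and 136, 174 and 1075 CPM in AN2. AN2-3 lay far above the other AN2 libraries, which the rule itself places above every AN1 library. LOC102596984 came second on the scale of the rule, with 5.96. It stood at 1.43, 3.92 and 1.53 CPM in AN0, 11.1, 19.2 and 27.5 CPM in AN1, and 75.6, 114 and 479 CPM in AN2. The order of the libraries within AN1 was that of LOC102577501 except that the values were lower, and AN2-3 was again on top. The CPM ratio of LOC102596984 to LOC102577501 lay between 0.416 and 0.655 in 8 libraries and was 1.12 in AN0-3, where LOC102577501 was at its lowest.

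Other members with large differences varied in how even they were within AN2. LOC102592148 had 2.53, 0.98 and 3.50 CPM in AN0, 7.68, 5.63 and 10.8 CPM in AN1, and 64.6, 66.2 and 69.5 CPM in AN2. The 3 AN2 libraries were nearly equal, and the difference between AN2 and AN0 was 4.68 on the log2 scale. LOC102588485 had 1.15, 1.80 and 1.28 CPM in AN0, 6.28, 4.54 and 7.64 CPM in AN1, and 47.4, 31.3 and 55.8 CPM in AN2. Its 3 treatments were well apart. LOC102602655 had a difference of 3.98, with means of 0.99 ± 0.22, 4.24 ± 1.84 and 26.5 ± 17.1 CPM in AN0, AN1 and AN2 (SD, n = 3 each). LOC102583592 had no count in the 3 AN0 libraries, where 3 counts over the group would be 0.0273 CPM. Its AN1 libraries pooled held 0.28 CPM. Its AN2 libraries held 3.77, 0.49 and 14.6 CPM, or 5.97 CPM pooled, at least 219-fold higher than AN0. That bound covers counting error only, and AN2-2 was close to the AN1 level.

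The rule bears on the spread within a treatment too, since it caps the highest AN0 library and sets a floor for the lowest AN2 library. The shares that follow are set beside all genes for that reason as a description, and nothing is read from the difference. AN2-3 was the highest AN2 library in 78 of the 129 members (60.5%), against 52.7% of all 17034 genes. AN2-2 was the lowest AN2 library in 89 members (69.0%), against 64.8% of all genes. The value in AN2-3 was at least 2 times the mean of the other AN2 libraries in 27 members (20.9%), on CPM + 0.5, and in 11.2% of all genes. The most extreme was LOC102589576, with 1.97, 2.31 and 4.18 CPM in the AN0 libraries, 8.52, 4.95 and 5.36 CPM in the AN1 libraries, and 25.8, 19.8 and 248 CPM in AN2-1 to AN2-3. That its other AN2 libraries lay above all AN1 libraries is demanded by the rule.

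AN0-1 is the other library with many photosynthesis transcripts. The rule holds AN0-1 below every AN1 library. It was met by 237 genes without AN0-1, the same count as without AN2-2. AN0-1 was the highest AN0 library in 42 members (32.6%), against 49.1% of all genes. Because the rule caps AN0-1, the members' values there say nothing on green tissue. PSBR was 2.41 above the other AN2 libraries in AN2-3 and 2.56 above the other AN0 libraries in AN0-1, both on the log2 scale. The same differences for patatin were -4.88 and -2.10. The 7 photosynthesis genes summed to between 20.9 and 758 CPM in AN0 libraries, 9.58 and 57.1 CPM in AN1 libraries, and 67.7 and 690 CPM in AN2 libraries, with AN0-1 and AN2-3 the highest of their treatments. The chlorophyll-binding protein gene cab1 (LOC102596966) had no count in AN0-3, AN1-1, AN1-2 and AN2-2. The part of green tissue or of storage tissue in the AN2-3 values was not tested. Without AN0-1 and AN2-3, 107 of the 129 genes met the whole rule, and the medians of the 2 steps over the 129 were 0.81 and 1.00. Leaving out libraries cannot bring overlap into a member, so genes could be lost only through the limits on step and mean CPM. The count of 107 was therefore largely set in advance, and nothing is read from it.

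**Figure D4:**
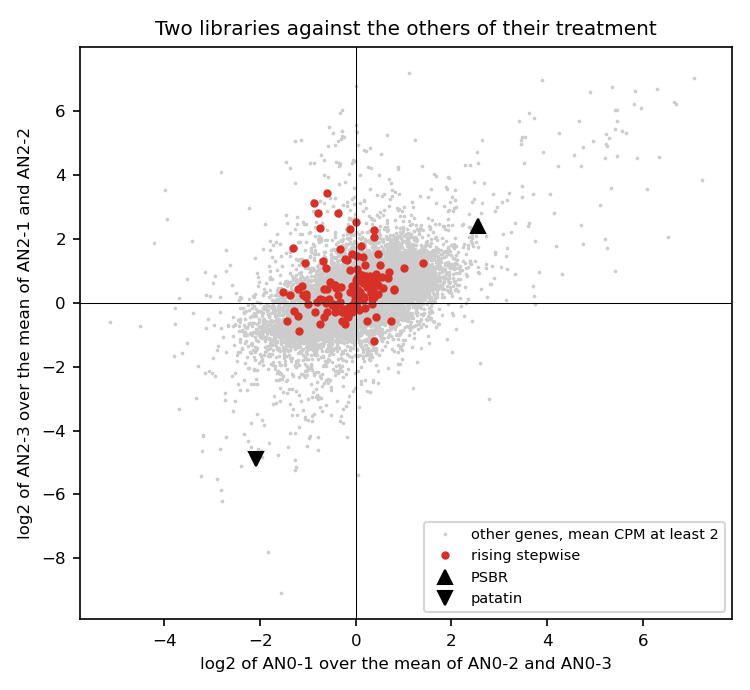
Log2 ratio, on CPM + 0.5, of AN0-1 to the mean of AN0-2 and AN0-3 (horizontal) and of AN2-3 to the mean of AN2-1 and AN2-2 (vertical), for each gene with a mean of at least 2 CPM. The members (red) reach 3.42 on the vertical axis and 1.41 on the horizontal one, where the rule itself limits them. PSBR (triangle up) is high on both axes and patatin (triangle down) is low on both.

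There were 3 pairs of members that stood in consecutive rows of the RefSeq list with ascending start positions, so each pair is taken as neighbouring genes, although the list does not name the scaffolds. The first pair is LOC102577567 and LOC102605015, which are of like length, 599 and 575 bases, and are also the first and the third by FPKM. LOC102605015 had 196, 144 and 171 CPM in AN0, 478, 211 and 307 CPM in AN1, and 661, 834 and 919 CPM in AN2. Its CPM stayed between 0.354 and 0.474 times that of LOC102577567 in all 9 libraries, so both were high in AN1-1 and low in AN1-2 within AN1. The genes on either side, LOC102604670 and LOC102605350, did not exceed 5.48 CPM in any library.

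The second pair is LOC102596984, described above, and LOC102597309, with lengths of 662 and 653 bases. LOC102597309 had 0.06, 0.98 and 0.05 CPM in AN0, 1.46, 1.99 and 3.53 CPM in AN1, and 7.89, 9.62 and 80.3 CPM in AN2. AN0-2 was the highest AN0 library and AN2-3 the highest AN2 library for both. The CPM ratio of LOC102597309 to LOC102596984 varied widely, from 0.0357 to 0.25 over the 9 libraries. The next gene in the table, LOC102597633, is no member. It had 6.36, 9.09 and 2.79 CPM in AN0, 19.3, 15.4 and 16.7 CPM in AN1, and 24.6, 15.2 and 324 CPM in AN2. AN1 was above AN0 for that gene and AN2-3 was again far above the rest, but AN2-2 lay below every AN1 library.

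The third pair, LOC102598344 and LOC102598689, is of lower level. LOC102598344 had 3.54, 2.09 and 1.99 CPM in AN0, 3.64, 6.22 and 3.71 CPM in AN1, and 19.8, 11.5 and 27.1 CPM in AN2. LOC102598689 had 0.34, 0.45 and 0.22 CPM in AN0, 1.31, 2.68 and 0.94 CPM in AN1, and 6.53, 4.88 and 9.66 CPM in AN2. AN1-2 was the highest AN1 library, AN2-2 the lowest AN2 library and AN2-3 the highest for both. The CPM ratio of LOC102598689 to LOC102598344 ran from 0.0952 to 0.43. Where neighbouring genes are similar in sequence, the authors' counting could have split or dropped reads between them, so the single values of these pairs are uncertain.

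**Figure D5:**
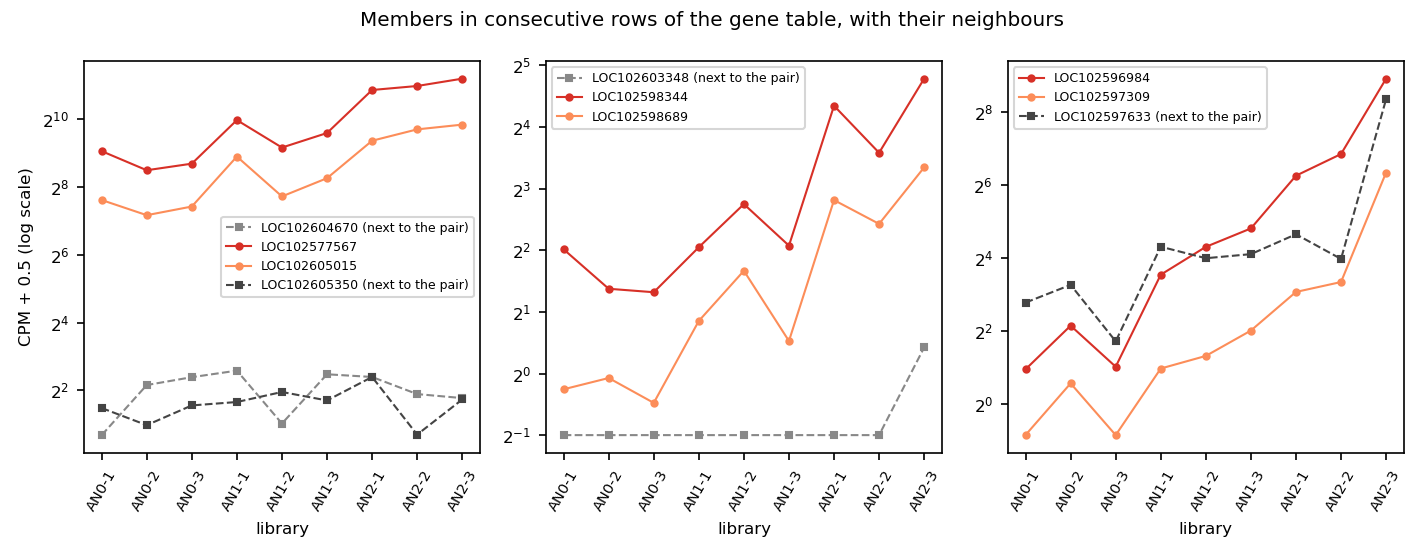
CPM + 0.5 on a log scale in the 9 libraries for the 3 pairs of members in consecutive rows of the gene table (circles) and for the counted genes next to them (squares, dashed). The lines of LOC102577567 and LOC102605015 run close to parallel, with CPM ratios of 0.354 to 0.474. Those of the other pairs, in which LOC102597309 and LOC102598689 have low CPM in AN0, do so less. LOC102597633, next to the pair on the right, shares the high value in AN2-3, where it reaches 324 CPM.

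The 8 lncRNA members are 6.20% of the set, against 2.59% of the 17034 genes. By mean FPKM over all libraries LOC102602331 came first among them with 15.2 FPKM, and LOC102600711 had 14.9 FPKM. LOC102602331 had 5.75 ± 1.05 CPM in AN0, 9.13 ± 0.92 CPM in AN1 and 13.4 ± 0.89 CPM in AN2 (SD, n = 3 each). LOC102600711 had 4.91 ± 0.44 CPM in AN0, 10.1 ± 0.84 CPM in AN1 and 18.2 ± 1.66 CPM in AN2 (SD, n = 3 each). Both had SDs below the distance between treatments. LOC102587091 had the largest difference of the 8, with 0.48, 0.08 and 0.38 CPM in AN0, 0.56, 0.75 and 2.96 CPM in AN1, and 9.99, 11.6 and 17.6 CPM in AN2. AN1-3 stood above the other AN1 libraries, which were close to AN0. How the counting treated strand is not given in the sources used here, so reads of an lncRNA cannot be told apart from those of a gene that overlaps it.

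No gene with a name apart from a locus number was among the members. The table names 477 genes, of which 426 had at least 2 CPM, or 2.50% of the 17034. Both steps were positive in 87 of the 426 (20.4%), against 32.7% of all genes. Apart from the genes left out of the set by name, 2 named genes were free of overlap in the rising order, RANGAP2 and OXAOXA. RANGAP2, which activates the GTPase Ran of nuclear transport, had 36.9, 39.4 and 41.3 CPM in AN0, 47.9, 48.3 and 47.9 CPM in AN1, and 59.0, 49.9 and 59.5 CPM in AN2. Its steps of 0.29 and 0.22 on the log2 scale were even and well below the limit. OXAOXA had steps of 0.27 and 0.66.

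In the opposite order, 2 named genes were free of overlap and met the mirrored rule. One was the nitrate reductase NR3, which reduces nitrate to nitrite, at 26.2, 12.5 and 17.8 CPM in AN0, 2.15, 2.99 and 1.62 CPM in AN1, and 1.04, 1.31 and 0.26 CPM in AN2. The other was LOC102588954, a cytosolic fructose-1,6-bisphosphatase of sucrose synthesis, with steps of -1.62 and -0.70. None of the 6 named genes of nitrogen assimilation and amino acid transport was positive at the first step, and 4 were positive at the second. Their median steps were -1.20 and 0.48, against 0.02 and 0.16 over all 17034 genes. Of 15 genes for abscisic acid and drought, 4 were positive at both steps. Among them nced1 (LOC102577783), which encodes a dioxygenase at the entry to abscisic acid synthesis, had steps of 0.33 and 1.95, with overlap between AN0 and AN1. Both steps were positive in 2 of 7 ethylene genes, 1 of 4 gibberellin genes, 2 of 11 regulators of flowering and buds, 1 of 18 genes of sugar and starch metabolism and 0 of 5 photosynthesis genes. None of these lists held a member. Of the 80 entries in these and the tuber list (78 genes), 73 were tested by edgeR. The shares that follow are of tested entries, so a gene in more than 1 list counts more than once. The lists were filled by hand with earlier results of these data known, so nothing is read from the distance to all genes. For AN1 against AN0 none was called in either direction, with 14 at an unadjusted p under 0.05 (19.2%, against 10.8% of all genes tested). DESeq2 called 6 lower (8.22%, against 2.20% of all genes) and 0 higher (0.999% of all genes). For AN2 against AN1 DESeq2 called 10 higher (13.7%, against 4.49% of all genes) and 0 lower (1.52% of all genes). In that comparison edgeR called none lower, with 22 at an unadjusted p under 0.05, and those called higher include the florigen relative TSF (log2 fold change 2.45 ± 0.44, SE, edgeR adjusted p = 0.0492). The call of TSF ended when any 1 of the AN1 libraries, AN0-1, AN0-2, AN2-3 or AN2-1 was left out, with an edgeR adjusted p of up to 0.243. For AN2 against AN0 DESeq2 called 5 higher (6.85%, against 7.21% of all genes) and 11 lower (15.1%, against 5.90% of all genes). There the genes that edgeR called higher include TSF and AP1, and it called NR3, the nitrite reductase NIR and the starch synthase LOC102583115 lower. NR3, with -4.55 ± 0.62 (edgeR adjusted p = 0.00965), kept its call without any 1 of the 9 libraries. TSF had 2.50 ± 0.44 and NIR -3.95 ± 0.71, with calls that ended without AN0-1, AN0-2 or AN2-1 and, for NIR, also without AN2-3 (edgeR adjusted p of up to 0.0692 and 0.0946). AP1 had 1.95 ± 0.38 and LOC102583115 -1.81 ± 0.40, and 3 and 2 of the 9 fits without 1 library called them (edgeR adjusted p of up to 0.115 and 0.131). The calls of AP1 ended without any 1 of the AN0 libraries, AN1-1, AN1-3 or AN2-1, and those of LOC102583115 without any 1 of the AN0 or AN1 libraries or AN2-1. Without both AN0-1 and AN2-3, NR3 and LOC102583115 kept their calls for AN2 against AN0 (edgeR adjusted p = 0.0252 and 0.0312). TSF, AP1 and NIR lost theirs (edgeR adjusted p = 0.0571, 0.0571 and 0.0670). TSF also lost its call for AN2 against AN1 (edgeR adjusted p = 0.0837).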

How the data were processed

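RNA from 9 stolon libraries, 3 per treatment, was extracted with TRIzol, per the labels' protocols, which name VAHTS Universal V6 as the library kit. HISAT2, fastp, DESeq2, HTSeq and R 3.2.0 appear in the submitters' processing notes, where no step is given for any of them. Genome build and strand setting are not stated in the sources used here. The authors deposited raw read counts per gene, with no normalization, and FPKM, which equal the deposited counts divided by gene length and library total (largest relative difference 1.71e-07). Gene lengths were taken from that relation. Of the 25702 gene IDs, 25672 matched a symbol of the RefSeq table of SolTub_3.0.

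The members and the lists were chosen with earlier results of these data known. Members were found on CPM from the counts. Calls came from edgeR 4.0.16 in R 4.3.3 (TMM, filterByExpr, all 9 libraries in 1 model with 3 treatment means, robust quasi-likelihood fit, Benjamini-Hochberg adjusted p under 0.05). The script was tested on simulated data. DESeq2 1.42.0, RLE factors, no filter, a replicate block, other settings of the rule and leaving out libraries were the alternatives. A member was named with values when it was among the 10 highest by mean CPM, among the 10 with the largest AN2 minus AN0 difference, next to the step limit, or next to another member in the gene table. LOC102583592, LOC102581787, LOC102595294, LOC102579540, LOC102601437, LOC102598218, LOC102602331, LOC102600711 and the genes that are no members were chosen after their values were seen. No product names were at hand, so the named groups cover symbols and synonyms only. Functional groups were filled by hand from those symbols and synonyms.

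Replicate numbers did not pair the libraries. Depth ran from 30952622 to 38235348 counts per library. A result on 1 gene of the functional groups is not reported here.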

Additional observations from a re-analysis of the deposited data

How the results depend on the processing

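The rule found 100 genes on TMM-scaled CPM, 94 of them among the 129, with 58 genes in the falling order. The rising share of both sets was 76.8% on CPM and 63.3% on TMM-scaled CPM. It found 30 genes with a step of at least 1, 266 with no minimum step and 238 without AN0-1 and AN2-3, of which 107 are among the 129. Leaving out 1 library at a time gave 126 to 237 genes, the highest counts without AN0-1 or AN2-2, and fewer libraries make the demand for no overlap easier to meet. Those fits gave medians of 0.78 to 0.88 for AN1 minus AN0 and 0.92 to 1.17 for AN2 minus AN1. With a step of at least 1 the medians were 1.28 and 1.92, and with no minimum step the second was 0.71.

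By edgeR the calls over all genes were 10 (AN1 against AN0), 148 (AN2 against AN1) and 774 (AN2 against AN0), and by DESeq2 679, 1275 and 2784. Without AN0-1 and AN2-3 they were 0, 15 and 296, and members called were 0, 4 and 62. Over the fits without 1 library the counts over all genes were 0 to 109, 0 to 367 and 110 to 1077, and those of members 0 to 6, 0 to 25 and 39 to 99. With no filter 2 members were called for AN1 against AN0, and DESeq2 called 36 and 63 members at the 2 steps. With the replicate block edgeR called 0, 5 and 166 genes and 0, 0 and 50 members. Libraries of the same number deviated together in no consistent way (r of -0.472 to 0.083), and 2 of 9 correlated best with their own number, so the block is not a paired analysis. The cause of these differences was not tested. For the 26 genes named by rule, 0 of 1092 alternative log2 fold changes turned sign, 80 lost a call and 36 gained one. All 26 were chosen for having no overlap between treatments, so the lack of sign changes was largely set by that choice.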
